A study of Mus musculus with 6 samples.

Results

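Proteasome subunit genes that are specialised for germ cells or immune cells were followed in Dppa2-deficient mouse embryonic stem cells and in the same cells after Dppa2 was put back. The set holds 10 of the 18516 gene symbols on the array. Of these, 6 are specialised (Psma8, Psmb8, Psmb9, Psmb10, Psme1 and Psme2) and 4 are constitutive counterparts (Psma7, Psmb5, Psmb6 and Psmb7). A probe was taken as theirs when the RefSeq accession in the scanner file belonged to one of these symbols, which gave 12 probes, with a pair each for Psmb8 and Psme2. All 10 genes passed the filter on dim probes, although Psma8 and Psmb8 passed it only through the groups in which they were bright. The genes were chosen with their signals in these groups known, so their values are given as a description and no p-value is attached to them.

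Total RNA was measured on 6 Agilent whole-genome arrays with 1 colour, 2 arrays in each of 3 groups, from cells kept for 3 days on gelatin in medium with 15% FCS and LIF. The wild-type lines (ECAT15-1 +/+, ECAT15-2 +/+) carried no vector. The knockout lines were ECAT15-2 -/-, that is, without Dppa2, and also homozygous for a conditional targeted (CT) allele of ECAT15-1, the gene of the paralogue Dppa4. A piggyBac transposon driven by CAG, a promoter active in most cell types, had been put into them, either empty (mock) or making Flag-tagged Dppa2. Each knockout line gave 1 mock and 1 Flag-Dppa2 array, which carry the same number. All lines came from blastocysts (E3.5 for the knockouts) of a mixed background of 129Sv, C57/BL6 and a Cre or FLPe strain, and the number 1 or 2 stands for the mother. Each array is 1 line, and precision is limited by having 2 arrays a group. The labels do not say whether any line was cloned from a single transduced cell.

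The proteasome is the protease that breaks down ubiquitin-tagged proteins. Its barrel-shaped core is built of alpha and beta subunits, and the cutting is done by the beta subunits Psmb5, Psmb6 and Psmb7. In immune cells and under interferon gamma, Psmb8, Psmb9 and Psmb10 are built in instead of Psmb5, Psmb6 and Psmb7, which gives the immunoproteasome, and Psme1 and Psme2 form the PA28 cap that opens the barrel. In male germ cells during meiosis, Psma8 takes the place of the alpha subunit Psma7.

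Levels are log2 signals relative to the 75th percentile of the array. That percentile lay between 719 and 856 intensity units, no spot was saturated, and 55.9% to 60.4% of the probes of an array were well above background. The wild-type arrays differed from each other by less than their scanner error: 0.444% of 14183 bright probes differed by more than the 95% limit of that error, where 5% are due, whereas 21.4% did so for the mock pair and 24.2% for the Flag-Dppa2 pair. The labels give them different mothers, and whether they are 1 sample or 2 was not settled. For calls, limma fitted all 6 arrays across all features, with Benjamini-Hochberg adjustment, and called a gene where the adjusted p was under 0.05. The SEs given with differences come from this fit, in which the groups share 1 spread for each gene. The median SD between the arrays of a group was 0.04 in wild type, 0.15 in mock and 0.17 with Flag-Dppa2. If wild type is 1 sample, the SEs tend to be too small, also in Flag-Dppa2 against mock. When both wild-type arrays were counted as 1 sample, 0 genes passed in limma in any of the 3 comparisons (1694, 1069 and 1049 at an unadjusted p under 0.05 for mock against wild type, Flag-Dppa2 against mock and Flag-Dppa2 against wild type). The wild-type and mock arrays shared 1 slide and the Flag-Dppa2 arrays lay on another, so slide and Flag-Dppa2 cannot be told apart. The Y-linked genes Eif2s3y and Ddx3y had signal in both wild-type lines and were not well above background on any knockout array, which means that the effects of sex and of genotype cannot be told apart.

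Dppa2 itself stood at 2.13 and 2.07 on the wild-type arrays, at -2.09 and -2.0 on the mock arrays and at -0.05 and 0.35 on the Flag-Dppa2 arrays. Where its probe lies relative to the deleted part of the gene was not analysed here. Dppa4 stood at 2.96 and 2.99 in wild type and between 3.47 and 3.78 on the knockout arrays. Of the pluripotency markers, 7 of 8 had a probe, and all 7 were well above background on every array, though not at 1 level. Pou5f1, a core pluripotency factor, stood at 3.01 and 2.67 in wild type, at 3.57 and 3.68 in mock and at 5.37 and 4.84 with Flag-Dppa2. Zfp42, a marker of naive stem cells, stood between 3.56 and 3.63 on both wild-type and both line 1 knockout arrays and at 6.39 and 6.35 on the line 2 mock and Flag-Dppa2 arrays. The summed level of 6 endoderm genes, as a multiple of the 75th percentile, was 0.570 to 0.574 in wild type, 0.566 to 0.767 in mock and 1.09 to 1.40 with Flag-Dppa2. The part of these differences in the subunit values was not tested.

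Psma8 and Psmb8 were the subunits that lost their signal in the mock knockout, and both had signal again with Flag-Dppa2, Psma8 to near the wild-type level and Psmb8 to a small part of it. The counterpart of Psma8, Psma7, stood level with wild type on every array, and that of Psmb8, Psmb5, stood slightly above it. The other 4 specialised subunits kept a signal well above background on all 6 arrays and, by the brightest probe of each, had group means at most 1.51-fold below wild type.

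**Figure D1:**
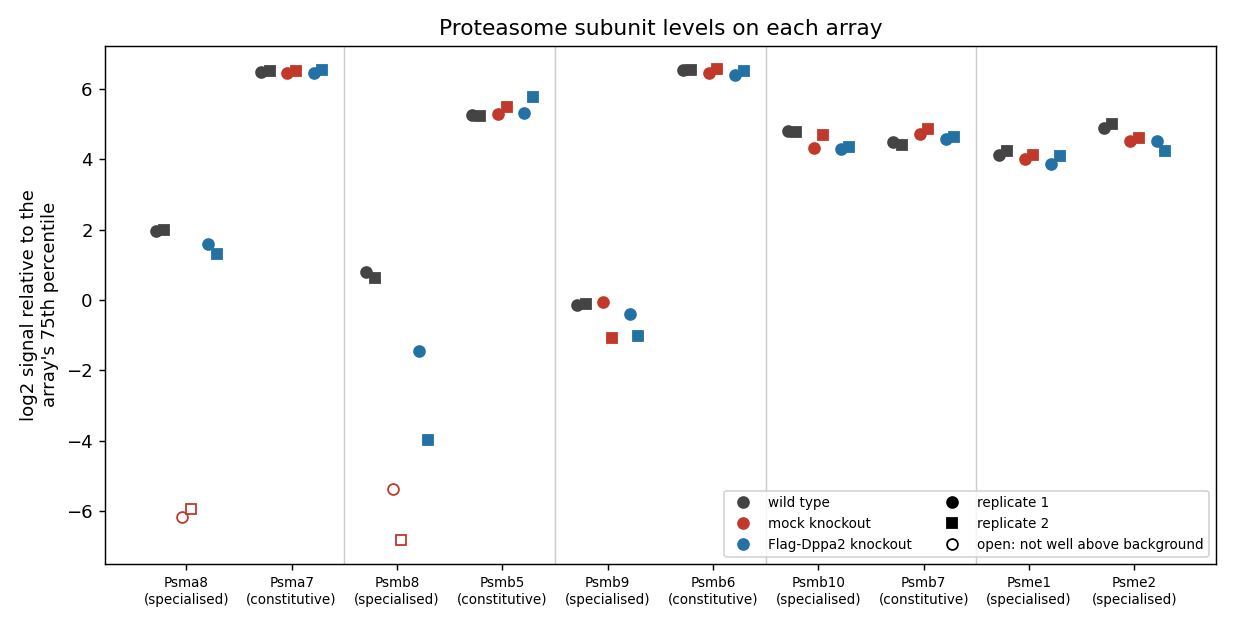
Log2 signal of each subunit gene relative to the array's 75th percentile (y axis), with the constitutive counterpart to the right of Psma8, Psmb8, Psmb9 and Psmb10 (x axis), 1 point per array. The mean of Psma8 is 1.98 in wild type, -6.05 in mock and 1.46 with Flag-Dppa2, Psmb8 stands with Flag-Dppa2 at -1.45 in line 1 and -3.96 in line 2, and the other subunits stay well above background on all 6 arrays; heights of different genes come from different probes and are not comparable.

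Psma8, the alpha subunit of meiotic male germ cells, had raw signals of 3210 and 3411 intensity units on the wild-type arrays. On the mock arrays it had 11.2 and 12.3 units and was not well above background, where the scanner software puts in surrogate values for the dimmest spots. On the Flag-Dppa2 arrays it had 2389 units in line 1 and 1798 units in line 2. The mock arrays were thus apart from all others, and the Flag-Dppa2 arrays lay just below the wild-type arrays without overlap. Relative to the percentile, Psma8 stood at 1.97 and 1.99 in wild type, at -6.17 and -5.92 in mock and at 1.60 and 1.32 with Flag-Dppa2. The measured log2 difference of mock from wild type was -8.03 (SE 0.15). As the mock signal was not well above background, an approximate bound was also taken, by which the wild-type level was about 162-fold higher. Such a bound sets the bright group's mean against, on each dim array, the dimmest signal still well above background or the signal of the probe itself, whichever is higher. It is no strict minimum, since some probes brighter than that dimmest signal were not well above background. On mock array 1 Ddx4 was such a probe, at -4.68, where the dimmest signal well above background was -5.04. With Flag-Dppa2 the level was about 113-fold above mock by the same kind of bound, and the log2 difference from wild type was -0.52 (SE 0.15). On a linear scale this is 69.6% of wild type, with 76.7% in line 1 and 63.3% in line 2. With normexp background correction, which adds an offset to every signal, the measured difference of mock from wild type was -5.06 and that of Flag-Dppa2 from mock 4.61.

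Psma7, the constitutive counterpart of Psma8, stood at 6.49 and 6.52 in wild type, 6.46 and 6.52 in mock and 6.44 and 6.54 with Flag-Dppa2. The ranges of the 3 groups overlapped, and no pair of groups differed by more than 0.02 (SE 0.09 for each difference). The loss of Psma8 signal in the mock arrays thus stood beside a steady Psma7 signal.

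Markers of meiotic and postmeiotic male germ cells were looked at beside Psma8. Of 8 such genes, 7 had a probe. In wild type 4 of them had signal well above background on both arrays, in mock 3 and with Flag-Dppa2 3. Spo11, which cuts DNA at the start of meiotic recombination, and Acrv1, a protein of the sperm acrosome, were not well above background on any array. Sycp1, a component of the synaptonemal complex, was above background in wild type and not in either knockout group. Hormad1, which marks unpaired chromosome axes in meiosis, stood at -1.83 and -0.78 in wild type, at -5.14 and -5.03 in mock and at -2.82 and -2.52 with Flag-Dppa2. Stra8, which is induced at the entry into meiosis, stood at 0.98 and 0.99, at 0.39 and 0.23 and at 1.52 and 0.75 in the same order. Hormad1 and Stra8 were thus lowest in mock, as was Psma8. Tnp1 was highest in mock, at -4.52 and -4.46, against -4.62 and -4.68 in wild type and -4.81 and -4.96 with Flag-Dppa2. It was well above background on both arrays in mock only. Prm1 overlapped between the groups, with means of -3.33 in wild type, -3.37 in mock and -3.32 with Flag-Dppa2. The genes of the list thus did not all share a pattern. The summed level of the list, as a multiple of the 75th percentile, was 2.48 to 2.78 in wild type, 1.38 to 1.5 in mock and 2.03 to 3.18 with Flag-Dppa2. Their part in the Psma8 values was not tested, and in such bulk samples fewer cells of a type and less RNA per cell cannot be told apart.

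Psmb8 is the immunoproteasome's replacement for Psmb5. Its brighter probe had 1431 and 1329 intensity units in wild type. On the mock arrays it had 19.6 and 6.57 units, not well above background. On the Flag-Dppa2 arrays it had 288 units in line 1 and 46.1 units in line 2, well above background on both. The 3 groups did not overlap, and wild type was highest and mock lowest. Relative to the percentile, Psmb8 stood at 0.81 and 0.63 in wild type, at -5.36 and -6.82 in mock and at -1.45 and -3.96 with Flag-Dppa2. The measured log2 difference of mock from wild type was -6.81 (SE 0.98), and by the approximate bound mock was about 67.4-fold lower. Flag-Dppa2 stood about 6.26-fold above mock by that bound, with a measured log2 difference of 3.39 (SE 0.98). It stood 10.8-fold below wild type (log2 difference -3.43, SE 0.98). The wide errors come with the gap between the lines: Flag-Dppa2 line 1 had 22.2% of the wild-type mean and line 2 had 3.89%. With normexp, the difference of mock from wild type was -3.90 and that of Flag-Dppa2 from mock 1.25.

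The dimmer Psmb8 probe showed the same order. It stood at 0.32 and 0.28 in wild type, -6.36 and -7.02 in mock, and -1.64 and -3.99 with Flag-Dppa2. By this probe Flag-Dppa2 line 1 had 26.0% of the wild-type mean and line 2 had 5.13%. With Flag-Dppa2, Psmb8 was thus higher in line 1 than in line 2 by both probes, whereas Dppa2 was lower in line 1 than in line 2. The mock arrays, both below background for Psmb8, give no order of the lines.

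Psmb5, the counterpart, stood at 5.25 on both wild-type arrays, at 5.29 and 5.49 in mock and at 5.33 and 5.77 with Flag-Dppa2. The knockout arrays all stood above wild type, by 0.14 (SE 0.18) in mock and by 0.30 (SE 0.18) with Flag-Dppa2 on the log2 scale. The knockout groups overlapped each other.

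Markers of other cells that could carry Psmb8 were looked at in the same arrays. Of 9 immune cell genes 8 had a probe, and in each of the 3 groups 5 of these lacked a signal well above background on both arrays. Ptprc, the common leukocyte antigen, and the macrophage and granulocyte genes Lyz2, Adgre1 and Itgam were not above background on any array. The summed level of the immune list was 1.54 to 1.75 in wild type, 1.35 to 1.49 in mock and 1.44 to 1.75 with Flag-Dppa2. Of 10 fibroblast and feeder cell genes, 8 had signal well above background in both wild-type lines, 4 in both mock lines and 6 in both Flag-Dppa2 lines, and Lum had none throughout. Their summed level was 5.83 to 6.17 in wild type, 1.83 to 2.28 in mock and 2.5 to 2.6 with Flag-Dppa2. Col1a1, a collagen chain made by fibroblasts, stood at 0.78 and 0.75 in wild type, at -1.69 and -3.54 in mock and at -1.56 and -3.87 with Flag-Dppa2, lower in line 2 of both knockout groups. The other genes of the list did not share 1 pattern. Thy1, a surface glycoprotein, stood at 1.04 and 1.07 in wild type, at 0.12 and 1.04 in mock and at -0.14 and 0.78 with Flag-Dppa2, higher in line 2. Mmp2, a matrix metalloproteinase, stood at -0.33 and -0.36, at -4.37 and -4.87 and at -0.68 and -0.75 in the same order, with the Flag-Dppa2 lines alike and near wild type. Fbn1 and Loxl1 were, like Psmb8, not well above background in mock and were so again on both Flag-Dppa2 arrays. Fbn1 stood at -3.47 and -3.60 in wild type, at -7.09 and -7.02 in mock and at -4.03 and -4.60 with Flag-Dppa2. Loxl1 stood at -2.17 and -2.33, at -6.80 and -6.40 and at -4.10 and -4.28 in the same order. The part of fibroblast-like RNA in the Psmb8 values was not tested.

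To show what lies upstream of Psmb8, of its constitutive counterpart Psmb5 and of Psmb9, a nearby gene that kept its signal, the 250 bases before each start are printed 5′ to 3′ on the gene's own strand, from RefSeq, assembly GRCm38.p6. They lie at chr17:34197945-34198194 on the + strand for Psmb8, chr14:54617996-54618245 on the - strand for Psmb5 and chr17:34187331-34187580 on the - strand for Psmb9. Capitals mark matches to the motifs searched.
Psmb8: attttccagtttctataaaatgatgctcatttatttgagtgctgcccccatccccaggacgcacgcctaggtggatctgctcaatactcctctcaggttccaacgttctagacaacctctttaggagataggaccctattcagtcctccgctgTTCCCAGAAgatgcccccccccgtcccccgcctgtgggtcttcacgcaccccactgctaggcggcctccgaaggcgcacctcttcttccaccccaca
Psmb5: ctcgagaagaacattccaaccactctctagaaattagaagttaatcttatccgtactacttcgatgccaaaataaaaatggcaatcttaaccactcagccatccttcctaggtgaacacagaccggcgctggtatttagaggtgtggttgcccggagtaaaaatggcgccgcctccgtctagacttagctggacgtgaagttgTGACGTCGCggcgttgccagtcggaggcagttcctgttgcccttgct
Psmb9: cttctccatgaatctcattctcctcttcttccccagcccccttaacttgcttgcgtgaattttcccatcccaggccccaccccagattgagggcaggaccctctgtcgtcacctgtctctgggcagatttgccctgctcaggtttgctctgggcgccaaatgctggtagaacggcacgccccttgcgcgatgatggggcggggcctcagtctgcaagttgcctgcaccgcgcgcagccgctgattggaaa

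The motifs, searched on both strands, were TTCNNNGAA, the core of interferon gamma activated sites, a pair of GAAA blocks 2 bases apart, the core of interferon-stimulated response elements, and TGACNNNGC, the core of antioxidant response elements, through which Nfe2l1 acts on proteasome genes. The Psmb8 window held 1 match to the first, as do 7.02% of the 32851 windows of this length in the table. The Psmb5 window, like that of Psmb6, held 1 match to the third, which 10.2% of all windows hold. The second motif, in 2.98% of all windows, was in none of the windows of the 8 subunit genes that the table holds, and the Psmb9 window had no match to any of the 3. Psma8 and Psmb7 were not in the table. The Psmb8 window had 10 CG pairs, the Psmb9 window 12 and the Psmb5 window 15, against a median of 6 over all windows, and the Psma7 window had 35. These are matches of letters and no measure of binding.

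Psmb9, the replacement for Psmb6, stood at -0.13 and -0.10 in wild type, at -0.05 and -1.06 in mock and at -0.40 and -1.02 with Flag-Dppa2. In line 1 the mock array was level with wild type, and in line 2 it was 1.95-fold below, so mock and wild type overlapped. The log2 difference of mock from wild type was -0.44 (SE 0.41) and turned to 0.06 without mock replicate 2. With Flag-Dppa2 the difference from mock was -0.15 (SE 0.41), which turned to 0.35 without mock replicate 1 and to 0.15 without Flag-Dppa2 replicate 2. Its counterpart Psmb6 stood between 6.40 and 6.55 on all 6 arrays, and the groups' means differed by at most 0.08 on the log2 scale.

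Psmb10, the replacement for Psmb7, stood at 4.81 and 4.78 in wild type, at 4.33 and 4.69 in mock and at 4.29 and 4.35 with Flag-Dppa2. All 4 knockout arrays lay below both wild-type arrays, by 0.28 (SE 0.15) in mock and by 0.47 (SE 0.15) with Flag-Dppa2 on the log2 scale. Psmb7 itself stood at 4.49 and 4.41 in wild type, 4.72 and 4.87 in mock and 4.59 and 4.64 with Flag-Dppa2. It lay above wild type on all 4 knockout arrays, by 0.34 (SE 0.10) in mock and by 0.16 (SE 0.10) with Flag-Dppa2. Psmb10 and Psmb7 thus stood on opposite sides of wild type, by at most 1.39-fold in any group mean.

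The PA28 genes Psme1 and Psme2, which lie on chromosome 14 with only Emc9 between them in the RefSeq order, were also below wild type. Psme1 stood at 4.13 and 4.23 in wild type, at 4.00 and 4.11 in mock and at 3.87 and 4.11 with Flag-Dppa2, with log2 differences from wild type of -0.13 (SE 0.13) and -0.19 (SE 0.13). The brighter Psme2 probe stood at 4.90 and 5.01 in wild type, at 4.52 and 4.60 in mock and at 4.53 and 4.23 with Flag-Dppa2. Its log2 differences from wild type were -0.40 (SE 0.14) in mock and -0.57 (SE 0.14) with Flag-Dppa2. The dimmer Psme2 probe gave -0.56 and -0.78 for the same differences. For both genes the Flag-Dppa2 mean lay further from wild type than the mock mean, and by the brighter probes the knockout groups overlapped.

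**Figure D2:**
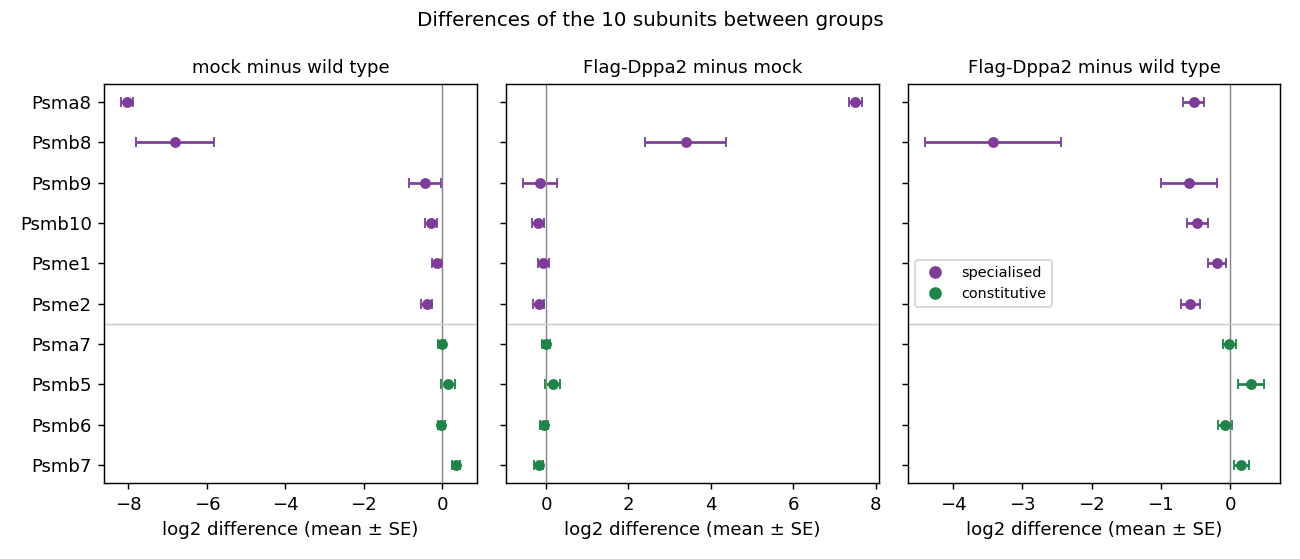
Log2 difference of group means with its SE (x axis) for each of the 10 subunits (y axis) in the 3 comparisons, specialised subunits in purple and constitutive ones in green. In mock minus wild type the 6 specialised subunits lie below 0, Psma8 at -8.03 and Psmb8 at -6.81 (measured values, with mock below background) and the other 4 between -0.44 and -0.13, while the 4 constitutive ones lie between -0.02 and 0.34.

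Counted over the set, limma called 2 of the 10 genes lower in mock than in wild type, Psma8 and Psmb8, against 4.05% of all 13297 genes called lower (6.69% in either direction). With Flag-Dppa2 against mock it called 1 of 10 higher, Psma8, against 0.85% of all genes (0.88% in either direction), and Psmb8 was not called there. In Flag-Dppa2 against wild type it called none of the 10, against 0.519% of all genes. Since the genes were chosen with these contrasts known, nothing is read from these counts. The calls of Psma8 and Psmb8 in mock against wild type were lost without either wild-type array and with wild type averaged. That of Psmb8 was also lost without either mock array and without a filter on dim probes. The call of Psma8 in Flag-Dppa2 against mock was lost without either wild-type or either Flag-Dppa2 array. It was also lost with only the mock and Flag-Dppa2 groups and with wild type averaged, and it held with the replicate number as a block. Which of these calls held is description only, because the genes were chosen with these values known. On the same arrays, 5 of the 6 specialised subunits had both mock arrays below both wild-type arrays, the exception being Psmb9, where 31.2% of all genes did. All 6 had both Flag-Dppa2 arrays below both wild-type arrays, where 27.8% of all genes did. The 4 constitutive subunits were split in mock, with 2 above wild type (36.5% of all genes were) and 2 overlapping it. With Flag-Dppa2, 2 lay above wild type (33.9% of all genes), 1 below it and 1 overlapped it. In Flag-Dppa2 against mock, Psma8 and Psmb8 lay above mock on both arrays (19.8% of all genes), Psmb7 lay below it (17.9% of all genes) and the other 7 overlapped it. The comparisons with wild type share the wild-type arrays and are not independent of each other.

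The rest of the proteasome was taken from 3 lists, of 10 other core genes, 19 genes of the 19S regulatory particle that recognises and unfolds substrates, and 18 assembly factors, other activators and regulators. Of these 47 genes 46 had a probe and 45 were tested. The one not above background on any array was Psmb11, the subunit of the thymus proteasome, and Ddi2 had no match. In mock against wild type, limma called 0 of the 45 (smallest adjusted p = 0.106), where 6.69% of all genes were called. At an unadjusted p under 0.05, 5 were higher and 2 lower. With Flag-Dppa2 against mock limma called 0, where 0.88% of all genes were called (0 of the 45 at an unadjusted p under 0.05). With Flag-Dppa2 against wild type it called 0, where 0.519% of all genes were called (3 higher and 2 lower at an unadjusted p under 0.05). The median log2 difference over the 45 genes was 0.08 in mock against wild type, beside 0.03 over all genes, -0.03 in Flag-Dppa2 against mock, beside 0.00, and 0.05 in Flag-Dppa2 against wild type, beside 0.03. None of the 45 differed by 2-fold or more in any comparison.

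Within these lists the differences were small. The 10 other core genes lay between -0.03 (Psmb1) and 0.21 (Psma2) in mock against wild type. Of the 19S genes, Sem1, a small subunit of the lid, was highest at 0.35 (SE 0.10) and Psmd12 lowest at -0.17, with a list median of 0.17. Among the assembly factors and regulators, Psmf1, an inhibitor of the core, was highest at 0.48 and Psmg4, a chaperone of core assembly, lowest at -0.46. Psme4, the activator PA200 that works with the core in male germ cells, had a log2 difference of -0.10 and Psme3, the nuclear relative of Psme1 and Psme2, of -0.10. Nfe2l1, the transcription factor that raises proteasome genes when proteolysis is impaired, had -0.40 and was not called (adjusted p = 0.115).

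**Figure D3:**
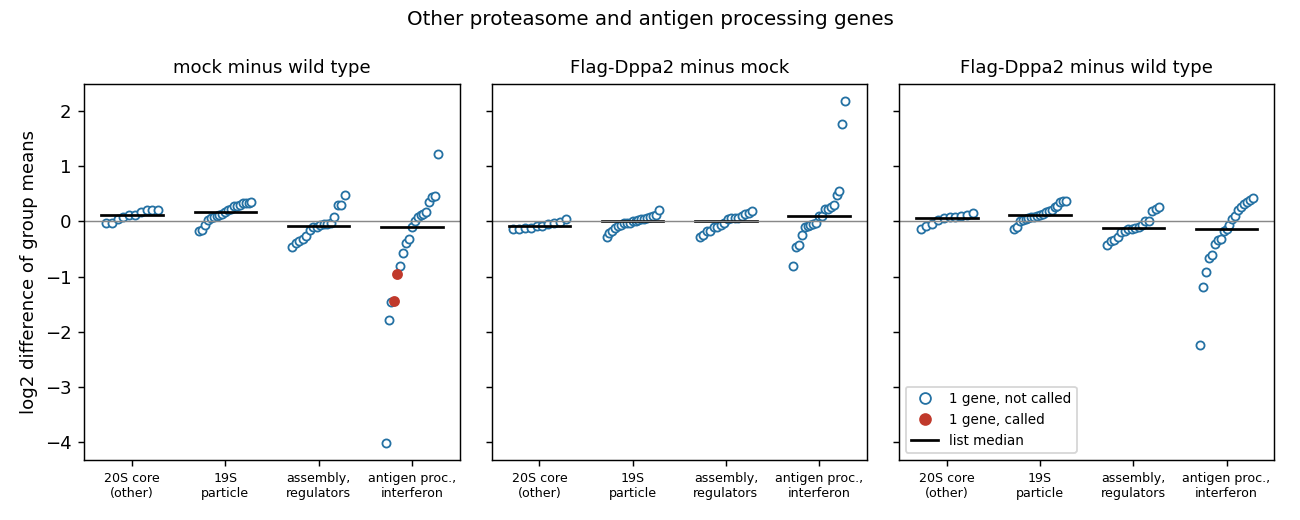
Log2 difference of group means (y axis) for every tested gene of the 4 lists (x axis) in the 3 comparisons, with the list median as a bar and genes called by limma filled red. The 45 other proteasome genes lie within -0.46 and 0.48 in each panel, while antigen processing and interferon genes spread from -4.01 (Erap1) to 2.18 (Tap2), with Irf1 and H2-K1 called lower in mock.

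Immunoproteasome genes work in antigen processing and are targets of interferon signalling, so a list of 22 such genes was set beside them, of which 21 had a probe and 19 were tested. In mock against wild type limma called 2 of the 19 lower and none higher, where 4.05% of all genes were called lower (6.69% in either direction). Irf1, the interferon-induced factor that drives Psmb8, Psmb9 and Psmb10, fell 2.72-fold, from 3.94 and 3.95 in wild type to 2.46 and 2.55 in mock (log2 difference -1.44, SE 0.16, adjusted p = 0.0233). H2-K1, a classical class I antigen, fell 1.94-fold, from 3.25 and 3.23 to 2.40 and 2.18 (log2 difference -0.95, SE 0.15, adjusted p = 0.0435). With Flag-Dppa2 they stood at 2.95 and 2.57, and at 2.72 and 2.43, below both wild-type arrays and above both mock arrays. Both calls were lost with the replicate block (adjusted p = 0.0526 and 0.0574), without a filter, with the wild-type arrays averaged, and without any 1 of the wild-type or mock arrays. Over all alternatives the adjusted p ran from 0.0178 to 0.233 for Irf1 and from 0.0309 to 0.334 for H2-K1. Within the slide that holds both groups, Irf1 was called (adjusted p = 0.0236) and H2-K1 was not (adjusted p = 0.053). The list's median was -0.09 in mock against wild type, beside 0.03 over all genes.

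No gene of that list was called by limma in Flag-Dppa2 against mock (0 higher and 1 lower at an unadjusted p under 0.05) or in Flag-Dppa2 against wild type (1 higher and 3 lower). Of all genes, 0.88% and 0.519% were called in these comparisons. The interferon gamma receptor genes Ifngr1 and Ifngr2 differed by 0.12 and -0.09 in mock against wild type, neither of them called. Erap1, the aminopeptidase that trims peptides for class I antigens, had the largest difference of the list. It stood at -0.52 and -0.55 in wild type, at -3.51 and -5.58 in mock and at -1.87 and -3.69 with Flag-Dppa2. Its mock difference of -4.01 (SE 0.93) was not called (adjusted p = 0.0831). With normexp the difference was -2.35 and was called (adjusted p = 0.0357). Erap1 was lower in line 2 than in line 1 of both knockout groups. It was well above background on only 5 of the 6 arrays, so these values rest in part on a signal near background. Nlrc5, the activator of class I genes, was not well above background on any array.

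Psmb8 and Psmb9 lie in the class II region of the major histocompatibility complex on chromosome 17, with Tap1 between them and Tap2 on the other side of Psmb8. Tap1 and Tap2 form the peptide transporter of the endoplasmic reticulum. Tap1 stood at -4.03 and -3.91 in wild type, at -2.51 and -3.00 in mock and at -3.39 and -3.71 with Flag-Dppa2. Mock was thus above wild type by 1.21 on the log2 scale (SE 0.22), which missed the limma threshold (adjusted p = 0.0541). Tap1 passed it among genes above background on all 6 arrays (adjusted p = 0.0472), with quantile normalization (adjusted p = 0.0278) and in the deposited series matrix (adjusted p = 0.0276). It was not called in any other alternative. These included normexp (adjusted p = 0.0537), every probe tested (0.0556), the replicate block (0.0699), the slide that holds both groups (0.0753) and no filter (0.116). Tap2 stood at -3.16 and -3.10 in wild type, at -4.30 and -5.54 in mock and at -1.62 and -3.85 with Flag-Dppa2. Its difference of mock from wild type was -1.79 (SE 0.86) and that of Flag-Dppa2 from mock 2.18 (SE 0.86), neither called (adjusted p = 0.269 and 0.395). Both genes were well above background on all 6 arrays, but dim. The dimmest signal still well above background was -5.67 on mock array 2, near Tap2 there, and -4.96 and -4.74 on the wild-type arrays, not far below Tap1.

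Of the tested genes, 4 on each side of Psmb8 were compared, a choice made after the values were seen. Leaving out Psmb9, limma called 0 of the other 7 in mock against wild type (adjusted p from 0.0541 to 0.571, 3 at an unadjusted p under 0.05). It also called 0 in Flag-Dppa2 against mock and 0 in Flag-Dppa2 against wild type, with 1 at an unadjusted p under 0.05 in each. Of all genes, 6.69%, 0.88% and 0.519% were called in these 3 comparisons. H2-Ab1, a class II antigen chain next after Tap2, had a log2 difference of -1.51 (SE 0.35) in mock against wild type (adjusted p = 0.0835), which was -0.87 and called with normexp (adjusted p = 0.0401). H2-DMa, H2-DMb1, Notch4 and Gpsm3 lay between -0.55 and 0.94. The genes directly around Psmb8 thus differed in direction, with Tap1 above wild type and Tap2 and H2-Ab1 below it in mock.

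**Figure D4:**
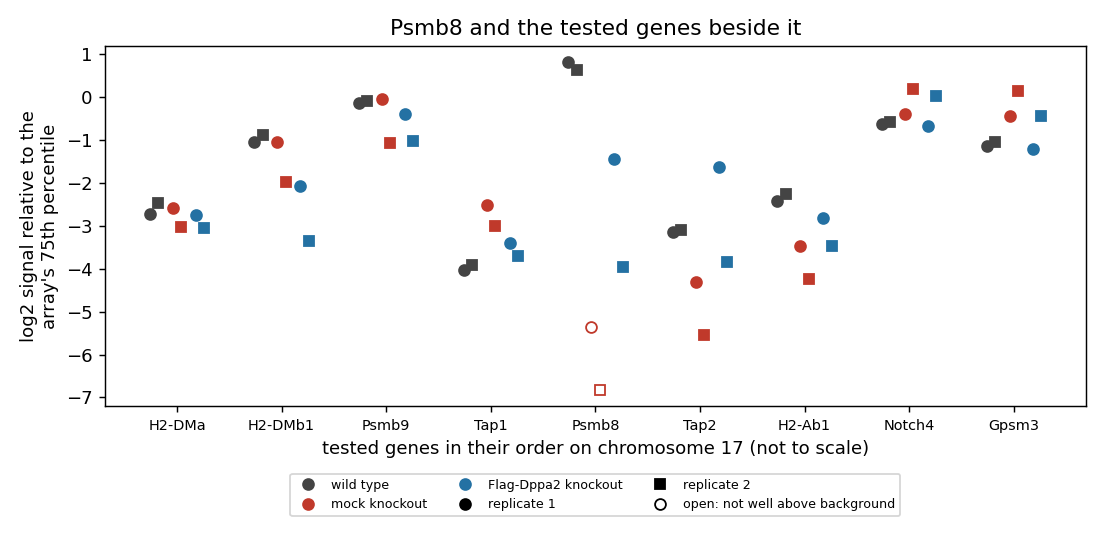
Log2 signal relative to the array's 75th percentile (y axis) of Psmb8 and 4 tested genes on each side of it, in their order on chromosome 17 (x axis), 1 point per array. Psmb8 is the only one of these 9 genes that is not well above background on the mock arrays (-5.36 and -6.82); Tap1 is higher in mock than in wild type and Tap2 is lower.

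The profiles most like Psma8 and Psmb8 were taken as those with the smallest root mean square distance over the 6 arrays, after centring each gene on its own mean, among 13296 other genes. For Psma8 these were Syce1 (distance 0.55), Aga (0.70), Hmgn3 (0.81), Gsdme (0.88) and Prxl2a (0.92). Syce1, a synaptonemal complex protein gene, stood at 0.92 and 0.94 in wild type, was not above background in mock, and stood at -0.06 and -1.20 with Flag-Dppa2. Aga, a lysosomal amidase gene, stood at -0.31 and -0.32 in wild type and at 0.13 and 0.77 with Flag-Dppa2, above wild type where Psma8 was below. Prxl2a, the only one of the 5 that was above background in mock, stood at -3.54 and -4.36 there.

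For Psmb8 the nearest were Tescl (distance 0.39), Mael (0.53), Ddx4 (0.67), Afm (0.68) and Dnajb3 (0.72). Mael, which helps to keep transposons silent in the germ line, stood at 0.03 and 0.04 in wild type, was not above background in mock and stood at -1.30 and -3.63 with Flag-Dppa2. Ddx4, the germ cell RNA helicase, stood at 1.49 on both wild-type arrays and at -2.56 and -4.05 with Flag-Dppa2. In all 5, as in Psmb8, the Flag-Dppa2 array of line 1 was above that of line 2 and both were below wild type. Afm and Dnajb3 were well above background on only 1 Flag-Dppa2 array, so their order of the lines rests in part on a signal near background. The other subunits of the set are not among these genes. These 10 genes were picked for their likeness on these arrays, so their differences add no separate support.

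**Figure D5:**
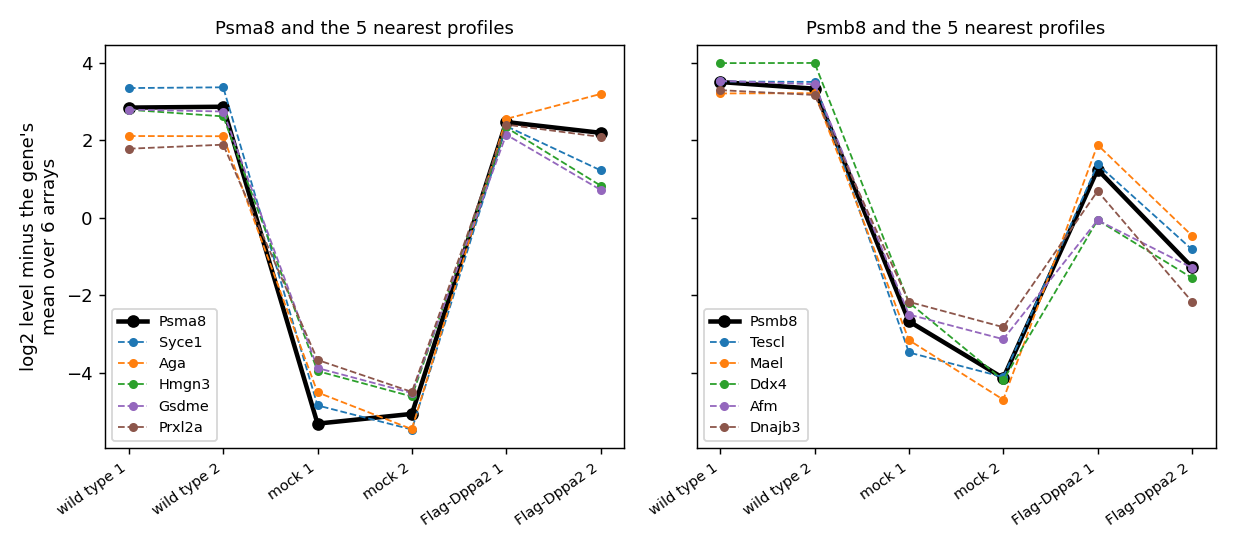
Log2 level minus the gene's own mean over the 6 arrays (y axis) on each array (x axis), for Psma8 and its 5 nearest profiles (left) and Psmb8 and its 5 nearest (right). With Flag-Dppa2 Psma8 returns to near its wild-type height, and Psmb8 stops part of the way, lower in line 2 than in line 1.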

How the data were processed

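Agilent Feature Extraction 10.7.3.1 (protocol GE1_107_Sep09, build mm9) made the deposited intensity values, per the file headers: background is subtracted, spatial trends are removed, the dimmest spots get surrogate values, and arrays are not scaled to each other. The deposited log2 values of the series matrix served as 1 alternative. GeneSpring GX 11 is named in the submitters' processing notes. The column medians of the matrix were all 5.84, it was not centred by gene, and how it was scaled is not given in the sources used here.

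Each array had 45018 spots. Control spots (1639) and flagged outlier spots were dropped, log2 signals were averaged per probe, and 41059 of 41174 probes remained. Each array's 75th percentile was subtracted. A table of assembly GRCm38 named 27143 probes through their RefSeq accessions. It served for names, chromosomes and gene order, and the files hold no column of gene names. A probe was kept if 2 or more of the 6 arrays had it well above background, with the brightest probe per symbol (13297 genes, 5466 probes without a symbol). All 6 arrays entered 1 limma fit of the 3 groups (limma 3.58.1, R 4.3.3), two-sided, adjusted over 18763 features. The fit was run on simulated data in which each gene had the same spread on all arrays and lines were not paired. That run thus did not test the fit under unequal spreads of the groups or paired lines, both of which these data have. Figures used Python 3.11.15 and matplotlib 3.10.9. Since the files lack mean spot signals, normexp (offset 50) used median signals.

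The replicate number pairs mock and Flag-Dppa2 arrays of a line (correlation of deviations from group means 0.59 over 18763 features). Wild type shares only the mother (-0.04 with mock, 0.01 with Flag-Dppa2). The planned fit had no block. The members, lists, tests and alternatives were chosen with earlier results of these data known. Genes named are all members, called list genes, the lowest and highest of a list, its known regulators, genes beside Psmb8 and the 5 profiles nearest to Psma8 and to Psmb8; list extremes, regulators and neighbours were chosen after their values were seen.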

Additional observations from a re-analysis of the deposited data

Results flagged for a closer look

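In Flag-Dppa2 against mock, the differences of 3 subunits had opposite signs in the knockout lines. Psmb9 differed by -0.35 (log2) in line 1 and by 0.05 in line 2, the brighter Psme2 probe by 0.01 and -0.36, and Psma7 by -0.01 and 0.02. The other Psme2 probe differed by -0.04 and -0.40, the same way in both lines. With 1 array per group and line, the difference between the lines was not tested.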

How the results depend on the processing

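No member's called difference changed sign. Over 454 values of the 10 subunits under the alternatives, 428 moved by less than the SD between replicates, and 15 changed sign, all of them uncalled differences of at most 0.44 (log2). The 26 others moved by more, with normexp, quantile normalization or the series matrix. The count of 428 is no measure of stability, because the remaining alternatives could not move a value by more than this SD. Changes of filter, block, slide or groups fitted, and averaged wild-type arrays, leave a difference of group means as it is. Leaving out an array of a pair can shift that difference by no more than this SD. Of 890 values of other named genes, 773 stayed on their side of the threshold, 101 lost and 16 gained a call. The 45 other proteasome genes had 0 calls by limma in every alternative.

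All genes called in mock against wild type numbered 889, and 1359 with normexp, 305 without a filter, 391 with the replicate block, 0 with wild type averaged and 0 to 707 without 1 array. In Flag-Dppa2 against mock they were 117, and 45 with normexp, 37 without a filter, 25 with genes above background on all 6 arrays, 3 with the replicate block, 0 with only those groups or with wild type averaged, and 0 to 93 without 1 array. In Flag-Dppa2 against wild type they were 69 (19 higher, 50 lower), 307 with normexp (151 and 156), 156 with quantile normalization or the series matrix (62 and 94 each), 5 without a filter, 18 above background on all 6 arrays, 0 with the replicate block, 3 with only those groups, 0 with wild type averaged and 0 to 3 without 1 array.

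Antigen processing genes called in mock against wild type were 2, and 3 with normexp (with Erap1), with quantile normalization, the series matrix or genes above background on all 6 arrays (each with Tap1, higher), 0 without a filter, with the replicate block or with wild type averaged, 1 (Irf1) within the first slide or with only those groups, and 0 to 1 without 1 array. In Flag-Dppa2 against wild type 1 was called with normexp (Irf1), against 0. The cause of these changes was not tested, except that fewer arrays or averaged arrays leave fewer degrees of freedom. Signal over background limits Psma8 and Psmb8 in mock to approximate bounds, and with all 6 arrays required above background they give no value.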
